A study of Mus musculus with 6 samples.

Results

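Gene levels in Ovol1/2 DKO keratinocytes were compared with those in control keratinocytes, on 4 of the 6 arrays of the study. The arrays were chosen by their titles, 2 for Ovol1/2 DKO and 2 for Control, all grown without calcium. Each array held RNA pooled from 2 C57BL/6 mice, and the cells were keratinocytes from the skin of embryos at E18.5, cultured for 2 to 5 days. The Ovol1/2 DKO mice were Ovol1-/- and Ovol2flox/- with K14-Cre, so that 1 Ovol2 allele was null throughout and the other was open to Cre only in cells that use the keratin 14 promoter. The control mice were littermates that were either Ovol2flox/+ with Ovol1+/-, or Ovol2flox/+ with K14-Cre. The controls were thus not wild type: they were heterozygous for a loss of Ovol1, or of Ovol2 in cells with K14-Cre. The other 2 arrays carry an Ovol1 KO label (Ovol1-/-) and are used here only for levels and for the spread between arrays of a group.

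Ovol1 and Ovol2 are zinc finger transcription factors of epithelia that mostly repress their targets. In the epidermis they are known for the switch from dividing basal cells to differentiating suprabasal cells. In several epithelia they are also known to restrain epithelial-mesenchymal transition (EMT), in which cells lose junctions and polarity and take up contractile and matrix genes, with repression of Zeb1 as one known step. Zeb1 itself represses epithelial genes through short DNA motifs called E-boxes. Low calcium keeps cultured keratinocytes in a basal-like state, and added calcium drives junction assembly and differentiation.

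Levels are given as log2(intensity + 16), and values for 2 arrays of a group stand in the order replicate 1, replicate 2. A gene passed where limma's moderated test gave an adjusted p under 0.05 over all 19938 genes. Because the p-values rest on 2 arrays a group, they measure the spread between these arrays. A level of 6.20 or less is called near background here, since 6.20 was the highest array median of probe sets that carried no gene name. Differences that end near background depend on the offset, and their size is a description of these arrays.

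Of the targeted genes, Ovol1 read 9.64 and 9.95 in control and 5.96 and 6.22 in Ovol1/2 DKO, while Ovol2 read 8.37 and 6.97 in control and 7.63 and 7.50 in Ovol1/2 DKO. Ovol1 groups did not overlap, and Ovol2 groups did. Where the Ovol2 probes lie relative to the deleted part is not known here, so the Ovol2 reading checks nothing. The arrays labelled Ovol1 KO read 10.75 and 9.80 for Ovol1, against their label. All samples are labelled female, but Xist, a marker of female cells that silences an X chromosome, stood at 4.43 in control replicate 1 and 11.24 in control replicate 2, with 11.43 and 11.28 in Ovol1/2 DKO. Its Y-linked genes Eif2s3y, Kdm5d and Uty read 4.85, 7.11 and 4.68, within the range of control replicate 2, the second array labelled Ovol1 KO and both Ovol1/2 DKO arrays. Replicate 1 labelled Ovol1 KO read 4.54 for Xist and 13.80, 13.61 and 9.95 for these 3 genes. The Xist readings of control replicate 1 and of replicate 1 labelled Ovol1 KO thus go against the female label, and so do the Y-linked readings of the latter, which enters the comparison only through the spread. Counts without control replicate 1 or without another array are given beside many results. Counts without both arrays that lack Xist signal are given beside some of them only. Where such a count is not printed, it can differ from that of the fit of all 6 arrays, also in direction. Across all genes control replicate 1 correlated at 0.969 with control replicate 2, at 0.963 with Ovol1/2 DKO replicate 1 and at 0.953 with Ovol1/2 DKO replicate 2, while control replicate 2 correlated at 0.920 and 0.933 with the Ovol1/2 DKO arrays. The 2 Ovol1/2 DKO arrays correlated at 0.982.

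The keratinocyte identity of the cells was read from 11 markers, whose mean level was 11.79 and 11.67 in control and 11.90 and 12.04 in Ovol1/2 DKO. The basal keratin Krt5 read 13.52 and 13.39 in control and 13.49 and 13.55 in Ovol1/2 DKO, and its partner Krt14 read 13.34 and 13.25 against 13.39 and 13.35. Of the 11 markers 1 (Dsg3, log2 difference -1.25, SE 0.21, limma adjusted p = 0.0402) fell and 10 did not pass (9.09% lower, against 1.40% of all genes). Both Ovol1/2 DKO arrays lay above both control arrays in 8 and below them in 2 (21.1% and 18.1% of all genes). The groups overlapped for Krt5, and the nearest arrays of the groups lay 0.01 apart for Krt14. The mean of 12 fibroblast markers was 6.56 and 7.28 in control, 6.65 and 7.32 in the pair labelled Ovol1 KO, against 6.89 and 7.30 in Ovol1/2 DKO, so that the groups overlapped. Of these markers 1 (Thy1) rose and 11 did not pass (8.33% higher, against 0.622% of all genes). The fibroblast proteoglycan Lum stayed near background in both groups, at 4.84 and 5.10 against 4.81 and 5.27. Of 9 melanocyte, 9 leukocyte, 8 endothelial and 7 skeletal muscle markers none passed by limma, and 3 melanocyte markers were lower and 1 endothelial marker each way at an unadjusted p under 0.05. Of 7 adipocyte and pericyte markers 1 rose and 6 did not pass (14.3% higher, against 0.622% of all genes). The one that rose was the pericyte proteoglycan Cspg4, which read 6.27 and 5.91 in control and 7.88 and 8.51 in Ovol1/2 DKO (log2 difference 2.11, SE 0.28, limma adjusted p = 0.0193) and lost the call without control replicate 2 or Ovol1/2 DKO replicate 2. The mean of these 7 was 6.15 and 6.38 in control and 6.43 and 6.71 in Ovol1/2 DKO, and its part in the results for smooth muscle genes was not tested. The mean of the melanocyte markers was 7.13 and 7.22 in control and 6.71 and 6.31 in Ovol1/2 DKO. In bulk RNA, fewer cells of a type and less RNA per cell cannot be told apart.

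Loss of both factors by label went with far more large decreases than large increases. The gene with the largest increase by the naming rule was Zeb1, and the largest decreases were in transporters, tight junction genes, vesicle proteins, cornified envelope genes and cytokines. In all 403 genes passed, 124 higher and 279 lower in Ovol1/2 DKO, which is 2.02% of the genes tested (0.622% higher and 1.40% lower). The median difference was 1.94 among genes that rose and -2.49 among genes that fell. Of genes past 16-fold, 4 were higher and 46 were lower. All 403 had arrays that did not overlap between groups, as did 39.2% of all genes. The median difference over all genes was 0.03, and most genes lay between -0.79 and 0.68.

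The share of genes that passed was lowest at low levels. Among 5129 genes near background in both groups, 1 passed. Among 3467 genes with a higher group mean between 10 and 12, 38 rose (1.1%) and 102 fell (2.94%), and among 461 genes above 12, 5 rose (1.08%) and 22 fell (4.77%). Of the 279 genes that fell, 98 ended near background in Ovol1/2 DKO, and of the 124 that rose, 22 started near background in control. The mean of the arrays labelled Ovol1 KO lay nearer control than Ovol1/2 DKO for 401 of the 403 genes, as a description. The count of passing genes was 455 without control replicate 1, 152 without control replicate 2, 109 without Ovol1/2 DKO replicate 1 and 99 without Ovol1/2 DKO replicate 2, and 284, 146, 96 and 90 of those were among the 403. It was 1395 (572 higher, 823 lower) when control replicate 1 and replicate 1 labelled Ovol1 KO were both left out.

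**Figure D1:**
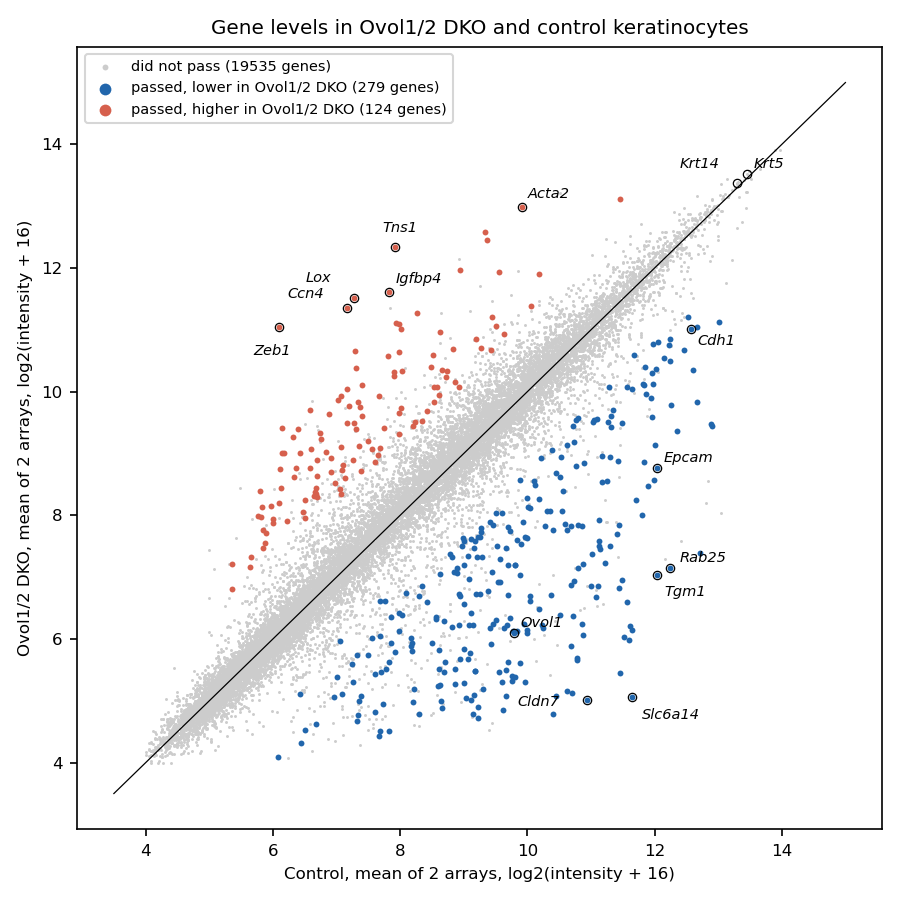
Each point is 1 of 19938 genes, with its mean over the 2 control arrays on the horizontal axis and its mean over the 2 Ovol1/2 DKO arrays on the vertical axis, both as log2(intensity + 16); the line marks equal levels. The median difference was -2.49 for the 279 genes that fell (blue) and 1.94 for the 124 that rose (red), and Krt5 and Krt14 lie on the line. Past 16-fold lie 46 genes that fell and 4 that rose.

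Among transcription factors, factors that drive epithelial and epidermal differentiation fell and Zeb1 and Zeb2 rose. Of 30 epithelial factors measured, 9 fell and the remaining 21 did not pass (no gene rose), with a median of -0.42. The share that fell was 30%, against 1.40% of all genes. Zfp750, a factor of terminal epidermal differentiation, read 11.43 and 11.40 in control and 7.27 and 8.10 in Ovol1/2 DKO, a 13.2-fold decrease (log2 difference -3.73, SE 0.35, limma adjusted p = 0.00840). Grhl3, a grainyhead factor of barrier formation, read 11.15 and 11.13 in control and 6.94 and 7.98 in Ovol1/2 DKO. Both factors were high in all 4 arrays outside Ovol1/2 DKO, and the nearest arrays of control and Ovol1/2 DKO lay 3.30 apart for Zfp750 and 3.16 apart for Grhl3. The Ets factor Elf3 fell from 10.03 and 11.01 to 6.04 and 6.73, and Ehf, another epithelial Ets factor, from 10.52 and 11.03 to 4.53 and 6.85. Ehf differed by 2.32 between the Ovol1/2 DKO arrays and lost its call without control replicate 2.

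The other members that fell were Grhl1 (-3.65, SE 0.56), Prdm1 (-3.66, SE 0.56), Hopx (-4.25, SE 0.75), Mxd1 (-3.65, SE 0.62) and the hair and epidermal factor Foxn1 (-3.08, SE 0.31). Prdm1 is a transcriptional repressor, Hopx is a homeodomain-only cofactor, and Mxd1 antagonises Myc. Other members did not pass. Grhl2, a grainyhead factor of many epithelia, was 1.37 lower (SE 0.38, limma adjusted p = 0.190) and the Kruppel-like factor Klf5 0.11 lower (SE 0.36). Trp63, which specifies basal keratinocytes, read 10.59 and 10.34 in control and 11.40 and 11.40 in Ovol1/2 DKO, a difference of 0.93 (SE 0.21) that did not pass (limma adjusted p = 0.102). Its relative Trp73 rose 8.76-fold, from 6.75 and 6.41 to 9.40 and 10.02 (SE 0.27 on the log2 scale, limma adjusted p = 0.00653). Without control replicate 1, control replicate 2, Ovol1/2 DKO replicate 1 or Ovol1/2 DKO replicate 2, the count of factors that fell was 8, 5, 5 and 6.

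Of 14 EMT factors measured, 2 rose, 3 fell and 9 did not pass. The shares were 14.3% higher and 21.4% lower, against 0.622% and 1.40% of all genes. Zeb1 read 6.06 and 6.13 in control, 5.88 and 6.29 in the pair labelled Ovol1 KO, against 11.06 and 11.03 in Ovol1/2 DKO (log2 difference 4.95, SE 0.21, limma adjusted p = 0.00257). It moved from near background to a level above the median of all genes (7.56), with the Ovol1/2 DKO arrays 0.02 apart. Zeb2, its close relative, read 5.70 and 6.23 in control and 7.94 and 8.36 in Ovol1/2 DKO, and lost the call when either Ovol1/2 DKO array was left out. Snai3, of the Snail family, fell by 3.34 (SE 0.54), Foxc1 by 1.53 (SE 0.23) and Foxc2, its relative, by 3.23 (SE 0.30) to near background. Snai1 was 0.14 higher (SE 0.24), Snai2 0.43 higher (SE 0.32) and Twist1 0.18 higher (SE 0.21), and none of these passed. The factors thus did not move as a block. Rises numbered 2, 2, 1 and 1 and falls 3, 1, 1 and 1 without control replicate 1, control replicate 2, Ovol1/2 DKO replicate 1 and Ovol1/2 DKO replicate 2.

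Among 11 splicing regulators of epithelial isoforms, 2 fell and 9 did not pass (18.2% lower, against 1.40% of all genes). Esrp2, which drives epithelial exon choice, read 10.66 and 10.86 in control and 9.68 and 9.40 in Ovol1/2 DKO (log2 difference -1.22, SE 0.21, limma adjusted p = 0.0407). Rbm47, an RNA-binding protein of epithelia, read 9.34 and 9.19 against 8.0 and 7.45. Esrp1 was 1.16 lower (SE 0.24, limma adjusted p = 0.0789), with groups that did not overlap, and Rbfox2 was 0.46 higher (SE 0.22). No call in this list held without control replicate 1, control replicate 2, Ovol1/2 DKO replicate 1 or Ovol1/2 DKO replicate 2.

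Of the junction lists, that of tight junction genes held the most decreases. Of 19 measured, 10 fell and the remaining 9 did not pass (no gene rose), with a median of -2.24 beside 0.03 for all genes. The share that fell was 52.6%, against 1.40% of all genes. Cldn7, a claudin that forms the paracellular seal, read 10.88 and 11 in control and 4.42 and 5.62 in Ovol1/2 DKO (log2 difference -5.92, SE 0.43, limma adjusted p = 0.00449). It ended near background. Cldn4 fell from 12.91 and 12.87 to 8.95 and 9.99, which left it well above background, and Cldn6 from 11.23 and 11.01 to 7.55 and 7.63. Ocln, the occludin, read 10.13 and 9.86 in control and 5.63 and 6.54 in Ovol1/2 DKO. Marveld2, the tricellulin of sites where 3 cells meet, read 9.33 and 8.39 against 5.01 and 5.53. Cldn3 and Marveld3 fell too, by 4.97 (SE 0.56) and 3.03 (SE 0.24).

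Outside the naming rule, the scaffolds Tjp3 and Cgn and the tricellular protein Ildr1 fell as well (log2 differences -2.24, -1.95 and -3.38). Cldn1, the main barrier claudin of skin, read 12.98 and 13.25 in control and 11.50 and 12.01 in Ovol1/2 DKO and narrowly missed the threshold (log2 difference -1.36, SE 0.25, limma adjusted p = 0.0513). The mean of the list was 9.78 and 9.89 in control, 9.95 and 10.03 in the pair labelled Ovol1 KO, against 7.32 and 7.73 in Ovol1/2 DKO. The 4 arrays outside Ovol1/2 DKO thus lay close together, above both Ovol1/2 DKO arrays. The count of genes that fell was 11, 9, 7 and 7 without control replicate 1, control replicate 2, Ovol1/2 DKO replicate 1 and Ovol1/2 DKO replicate 2.

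Adherens junctions and desmosomes, which join neighbouring cells to actin and to keratin, had decreases in a minority of members. Of 17 adherens junction and nectin genes, 3 fell and 14 did not pass (17.6% lower, against 1.40% of all genes). Cdh1, the epithelial cadherin, read 12.74 and 12.42 in control and 10.81 and 11.22 in Ovol1/2 DKO, a 2.96-fold decrease (log2 difference -1.57, SE 0.24, limma adjusted p = 0.0292). It remained at a high level but lost the call without any 1 of the 4 arrays. Nectin4 fell from 9.88 and 10.86 to 6.16 and 7.26, and the nectin adaptor Afdn from 11.49 and 11.66 to 10.22 and 9.93. The catenins did not pass, with Ctnnb1 at 0.06 (SE 0.19) and Ctnna1 at -0.19 (SE 0.19). Cdh3, the placental cadherin of basal cells, was 0.54 higher (SE 0.21), and Cdh2, the neural cadherin, was 1.68 higher (SE 0.64, limma adjusted p = 0.394). Without control replicate 1, control replicate 2, Ovol1/2 DKO replicate 1 and Ovol1/2 DKO replicate 2, 3, 1, 0 and 1 genes of the list fell.

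Of 11 desmosome genes 2 fell and 9 did not pass (18.2% lower, against 1.40% of all genes). The desmosomal cadherin Dsc2 read 10.96 and 11.54 in control and 8.25 and 8.85 in Ovol1/2 DKO. Dsg3, the basal desmoglein, read 12.20 and 11.89 against 10.81 and 10.79, with a call lost without any 1 of the 4 arrays. The plaque proteins Dsp (-0.37, SE 0.20), Pkp1 (-0.15, SE 0.24) and Jup (-0.46, SE 0.20) did not pass. With control replicate 1 left out 1 gene of the list passed, and with any 1 of the others left out none did. None of 7 connexins, the gap junction proteins, passed by limma, and 2 were higher at an unadjusted p under 0.05. Gja1 was 0.18 higher (SE 0.26).

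Polarity and apical trafficking genes formed the longest run of decreases. Of 28 measured, 14 fell and the remaining 14 did not pass (no gene rose), with a median of -1.47. The share that fell was 50%, against 1.40% of all genes. In 24 of the 28 both Ovol1/2 DKO arrays lay below both control arrays (18.1% of all genes did). Epcam, an epithelial adhesion molecule, read 11.93 and 12.15 in control, 11.93 and 12.32 in the pair labelled Ovol1 KO, against 8.78 and 8.74 in Ovol1/2 DKO (log2 difference -3.28, SE 0.22, limma adjusted p = 0.00343). The arrays of each group were close, and the nearest arrays of the groups lay 3.15 apart. Crb3, an apical polarity protein, read 9.23 and 10.29 in control and 5.13 and 5.51 in Ovol1/2 DKO. Ap1m2, the epithelial subunit of a clathrin adaptor for basolateral sorting, read 10.63 and 10.75 against 5.16 and 6.62. Myo5b, the motor of recycling vesicles, read 8.90 and 9.42 against 4.83 and 5.37. These 3 ended near background.

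Rab25, a small GTPase of recycling vesicles, read 12.28 and 12.21 in control and 5.74 and 8.54 in Ovol1/2 DKO. The Ovol1/2 DKO arrays differed by 2.80, and the call was lost without either control array. Mal and Mal2, proteins of apical transport, read 11.12 and 12.12 against 5.07 and 7.35, and 11.44 and 11.77 against 4.93 and 7.03. In these genes replicate 1 of Ovol1/2 DKO was the lower array, as it was in 168 of the 279 genes that fell (60.2%) and in 45.8% of all genes. Smaller decreases that passed included Pard6b, a core polarity protein (-2.22, SE 0.31), the basolateral protein Llgl2 (-1.63, SE 0.21), the scaffold Patj (-1.61, SE 0.24) and the Rab11 effector Rab11fip1 (-2.24, SE 0.30), named here after their values were seen. The count was 12, 5, 8 and 7 without control replicate 1, control replicate 2, Ovol1/2 DKO replicate 1 and Ovol1/2 DKO replicate 2.

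**Figure D2:**
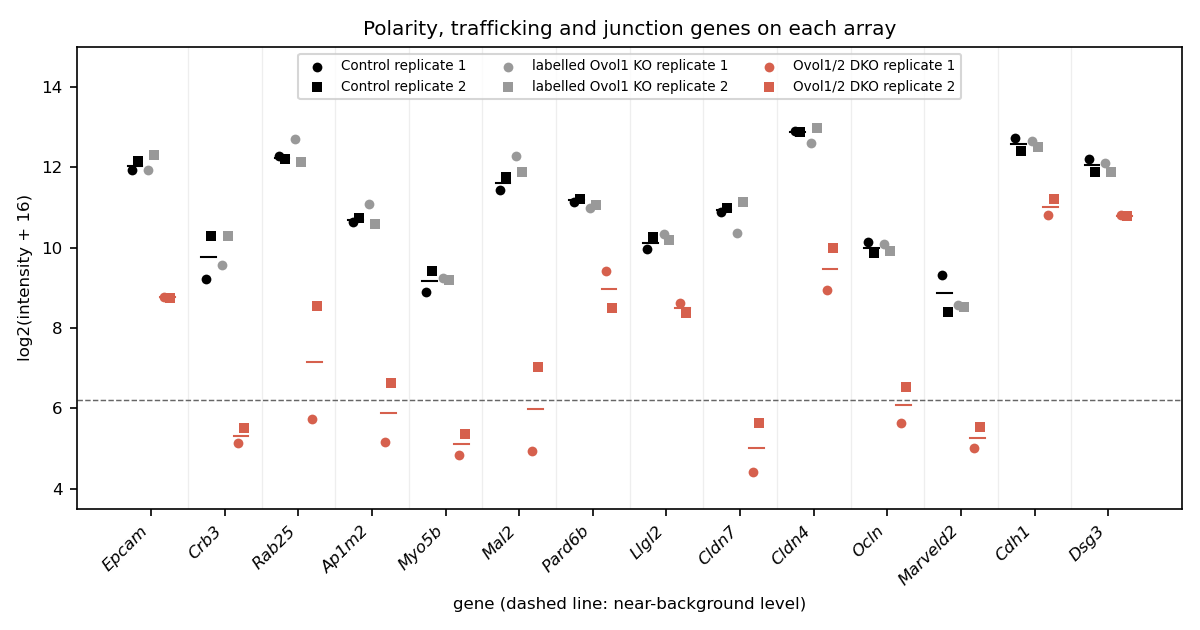
Levels of 14 polarity, trafficking and junction genes on each array as log2(intensity + 16); black points are control, grey points the arrays labelled Ovol1 KO, orange points Ovol1/2 DKO, circles replicate 1, squares replicate 2, short bars means of 2 arrays, and the dashed line the near-background level of 6.20. In all 14 genes both Ovol1/2 DKO arrays lie below both control arrays, from 2.37-fold in Dsg3 to 60.5-fold in Cldn7.

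Because many of these genes moved together, the 250 bases before each gene's start were read from RefSeq (build GRCm38.p6) for genes with 1 start in that table. Such a promoter was found for 12977 tested genes, among them 165 of the genes that fell and 68 of those that rose. Then 5 motifs were searched on both strands: the core CCGTTA that Ovol factors are known to bind, the E-box CAGGTG of Zeb factors, AACNGGTT of grainyhead factors, TGANTCA of AP-1, and the CArG box of serum response factor. The Ovol core can share bases with the grainyhead motif and the E-box with the AP-1 motif, and each motif was counted on its own. The 8 promoters below are shown because their genes carry results above or further on, and they were chosen after their matches were seen. Each is 1 strand, 5′ to 3′ toward the start, with matches in capitals: E-boxes as CAGGTG or its reverse CACCTG, AP-1 as TGACTCA, 1 grainyhead match in Rab25 and 1 Ovol core in Igfbp4.
Epcam, chr17:87635729-87635978, plus strand: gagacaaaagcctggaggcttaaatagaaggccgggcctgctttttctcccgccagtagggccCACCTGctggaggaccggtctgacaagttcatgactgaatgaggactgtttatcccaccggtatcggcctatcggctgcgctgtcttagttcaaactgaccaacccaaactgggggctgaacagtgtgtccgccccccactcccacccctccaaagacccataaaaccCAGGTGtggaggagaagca
Rab25, chr3:88548280-88548529, minus strand: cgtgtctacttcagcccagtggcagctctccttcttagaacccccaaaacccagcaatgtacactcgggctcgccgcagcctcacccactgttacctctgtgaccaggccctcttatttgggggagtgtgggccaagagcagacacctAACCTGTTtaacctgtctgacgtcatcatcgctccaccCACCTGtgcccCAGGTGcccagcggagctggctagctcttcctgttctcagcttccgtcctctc
Ap1m2, chr9:21312334-21312583, minus strand: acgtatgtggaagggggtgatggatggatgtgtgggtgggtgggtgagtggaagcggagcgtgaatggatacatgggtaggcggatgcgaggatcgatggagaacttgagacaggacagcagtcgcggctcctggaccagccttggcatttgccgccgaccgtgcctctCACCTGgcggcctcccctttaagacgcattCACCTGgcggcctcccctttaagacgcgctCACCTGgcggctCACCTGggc
Elf3, chr1:135258473-135258722, minus strand: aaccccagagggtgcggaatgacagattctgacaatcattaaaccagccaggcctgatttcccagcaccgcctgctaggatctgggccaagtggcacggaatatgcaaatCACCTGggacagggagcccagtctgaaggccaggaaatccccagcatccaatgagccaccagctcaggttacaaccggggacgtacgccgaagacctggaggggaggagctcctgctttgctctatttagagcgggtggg
Grhl3, chr4:135573633-135573882, minus strand: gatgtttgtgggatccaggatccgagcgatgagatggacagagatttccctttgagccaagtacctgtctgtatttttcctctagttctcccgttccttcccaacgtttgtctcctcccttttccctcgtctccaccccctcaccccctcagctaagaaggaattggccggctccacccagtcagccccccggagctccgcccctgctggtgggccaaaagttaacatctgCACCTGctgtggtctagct
Cldn4, chr5:134946935-134947184, minus strand: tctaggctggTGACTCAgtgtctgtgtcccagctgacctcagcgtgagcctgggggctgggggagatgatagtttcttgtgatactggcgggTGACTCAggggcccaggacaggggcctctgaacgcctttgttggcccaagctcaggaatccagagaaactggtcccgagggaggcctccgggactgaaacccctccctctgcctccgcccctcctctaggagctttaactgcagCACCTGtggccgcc
Pard6b, chr2:168080754-168081003, plus strand: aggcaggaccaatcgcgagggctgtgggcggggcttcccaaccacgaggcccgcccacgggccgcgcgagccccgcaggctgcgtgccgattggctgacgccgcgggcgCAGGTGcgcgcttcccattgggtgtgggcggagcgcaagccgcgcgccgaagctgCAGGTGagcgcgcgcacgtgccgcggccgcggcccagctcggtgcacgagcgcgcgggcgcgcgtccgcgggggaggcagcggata
Igfbp4, chr11:99040994-99041243, plus strand: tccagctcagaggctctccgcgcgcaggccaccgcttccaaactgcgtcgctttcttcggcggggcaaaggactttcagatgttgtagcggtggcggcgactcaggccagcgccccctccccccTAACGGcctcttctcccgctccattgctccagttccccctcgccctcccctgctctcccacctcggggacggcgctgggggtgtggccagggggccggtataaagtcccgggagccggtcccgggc

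Genes that fell held the E-box more often than genes that rose. It occurred in 66 of 165 promoters of genes that fell (40%), in 3 of 68 of genes that rose (4.41%), in 16.6% of all tested genes with a promoter and in 17.1% of all 22862 promoters. In Ap1m2 it occurred 4 times, the last ending 4 bases before the start, and in Epcam, Rab25 and Pard6b it occurred 2 times each. Read the other way, 3.07% of 2151 genes with the E-box fell and 0.139% rose, against 0.914% and 0.600% of 10826 genes without it. With every start counted, so that a gene could count more than once, the E-box occurred at 35.1% of 259 starts of genes that fell. It occurred at 8.93% of 112 starts of genes that rose and at 16.9% of all 19177 starts. The median GC content was 59.2% for genes that fell, 61.0% for genes that rose and 56.4% for all. No test was made of these shares, and a match is a string of letters in this window, not a bound site.

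The AP-1 motif occurred in 15.2% of promoters of genes that fell, in 5.88% of those that rose and in 6.10% of all tested. Cldn4 held it 2 times. The Ovol core occurred in 3 promoters of genes that rose (4.41%), in 3 of genes that fell (1.82%) and in 2.40% of all tested. In Igfbp4 it lay 126 to 121 bases before the start. The grainyhead motif (3.03%, 1.47% and 1.65%) and the CArG box (3.03%, 1.47% and 1.26%) were rare in genes that fell, in genes that rose and in all tested genes alike.

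**Figure D3:**
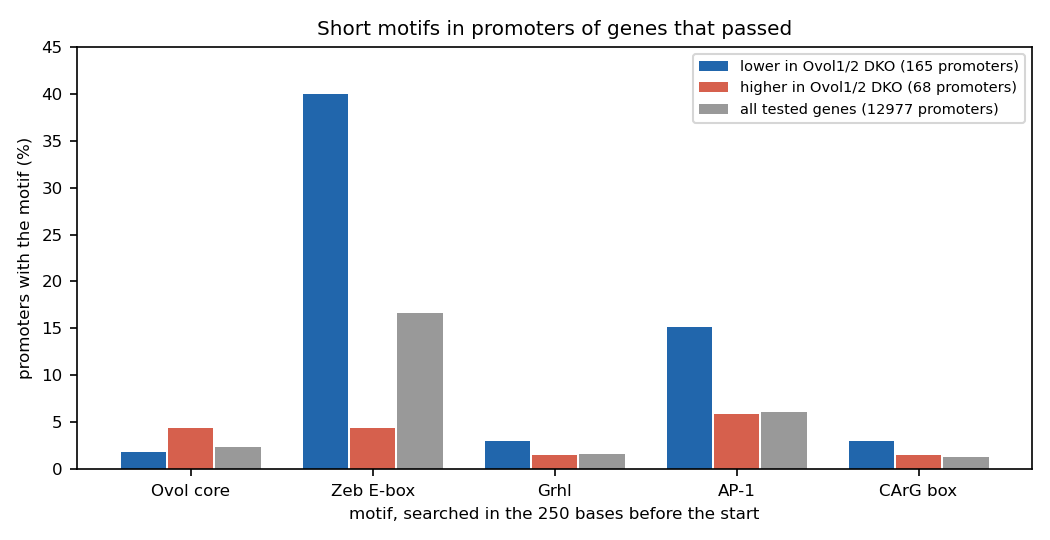
Share of promoters (250 bases before the start, in percent) that hold each of 5 motifs on either strand, for genes that fell (blue, 165 promoters), genes that rose (red, 68) and all tested genes with a promoter (grey, 12977). The E-box bar of genes that fell stands at 40%, against 16.6% for all tested genes.

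Membrane-bound serine proteases and their inhibitors, which process proteins at the keratinocyte surface, fell in 6 of 13 measured members (46.2%, against 1.40% of all genes). All 13 had both Ovol1/2 DKO arrays below both control arrays (18.1% of all genes). The median was -2.82. St14, the matriptase, read 11.88 and 11.79 in control and 8.62 and 9.10 in Ovol1/2 DKO (log2 difference -2.97, SE 0.23, limma adjusted p = 0.00476). Its inhibitor Spint1 read 11.35 and 11.24 against 8.71 and 9.19. Prss8, the prostasin that acts with matriptase, read 10.51 and 12.37 against 8.47 and 8.77 and did not pass (limma adjusted p = 0.0669). Tmprss11e, Tmprss13, Tmprss2 and Prss27 fell too (log2 differences -4.59, -4.07, -2.77 and -3.84), and all 4 lost the call when either Ovol1/2 DKO array was left out, as Tmprss13 also did without control replicate 2. The list count was 9, 5, 1 and 2 without control replicate 1, control replicate 2, Ovol1/2 DKO replicate 1 and Ovol1/2 DKO replicate 2. It was 11 with both arrays that lack Xist signal left out.

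Of 20 kallikreins and epidermal protease inhibitors 3 fell (15%, against 1.40% of all genes), all of them inhibitors. Spink5, which restrains kallikreins, read 10.30 and 10.97 in control and 4.40 and 5.93 in Ovol1/2 DKO (log2 difference -5.47, SE 0.66, limma adjusted p = 0.0158). Serpinb2 fell from 12.99 and 12.83 to 8.95 and 9.95 and Slpi from 11.39 and 12.39 to 7.73 and 9.23. Klk7, a desquamation protease, read 9.03 and 11.83 in control, 12.35 and 10.38 in the pair labelled Ovol1 KO, against 5.68 and 6.90 in Ovol1/2 DKO. It was 17.6-fold lower by the means but did not pass (limma adjusted p = 0.135). Without the 4 arrays in turn, in the order control replicate 1, control replicate 2, Ovol1/2 DKO replicate 1, Ovol1/2 DKO replicate 2, the list count was 6, 1, 1 and 3, and 10 without both arrays that lack Xist signal.

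Among 12 stress and simple epithelial keratins 5 fell (41.7%, against 1.40% of all genes). In 11 of the 12 both Ovol1/2 DKO arrays lay below both control arrays (18.1% of all genes). The stress keratin Krt16 read 11.22 and 11.05 in control and 7.43 and 7.58 in Ovol1/2 DKO, and Krt6b read 9.89 and 11.49 against 6.37 and 7.37. Krt8, a simple epithelial keratin, read 12.27 and 12.65 against 10.45 and 10.89 (log2 difference -1.79, SE 0.28, limma adjusted p = 0.0316). Krt7 and Krt19 fell by 2.54 (SE 0.37) and 2.86 (SE 0.51). Krt6a was 0.72 lower (SE 0.20) and did not pass. Of 10 keratins of basal and suprabasal layers, Krt80 fell by 2.64 (SE 0.42), which is 10% of that list, against 1.40% of all genes. Krt10, the spinous keratin, read 7.90 and 8.04 in control and 7.72 and 7.77 in Ovol1/2 DKO and did not pass. The stress and simple keratin count was 4, 0, 0 and 2, and the call of Krt80 was kept, lost, lost and lost, without control replicate 1, control replicate 2, Ovol1/2 DKO replicate 1 and Ovol1/2 DKO replicate 2.

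Genes of the cornified envelope, the protein shell of the outermost epidermis, fell in part, and the control arrays differed from each other in many of them. Of 33 measured, 7 fell (21.2%, against 1.40% of all genes) and the remaining 26 did not pass (no gene rose), with a median of -2.71. In 26 of the 33 both Ovol1/2 DKO arrays lay below both control arrays (18.1% of all genes). Tgm1, the transglutaminase that cross-links the envelope, read 11.74 and 12.35 in control and 6.48 and 7.61 in Ovol1/2 DKO (log2 difference -5.00, SE 0.41, limma adjusted p = 0.00551). Sprr1b, a small proline-rich substrate of it, read 12.42 and 13.02 against 6.00 and 8.78. Evpl, the envoplakin scaffold, read 8.79 and 9.10 against 6.75 and 6.63. Sprr2d, Sprr2e and Sprr2h, near-identical copies whose probes may read one another, read 9.49 to 9.96 in control replicate 1 and 11.93 to 13.34 in control replicate 2, against 5.66 to 6.64 in Ovol1/2 DKO. Lor, the loricrin, read 7.69 and 7.55 in control, 9.92 and 6.92 in the pair labelled Ovol1 KO, against 4.29 and 5.14 in Ovol1/2 DKO. It did not pass (limma adjusted p = 0.231), and the spread of the pair labelled Ovol1 KO enters that test. Ivl, the involucrin, read 8.38 and 8.84 against 8.35 and 7.01.

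The mean of the list was 8.37 and 10.09 in control, 10.06 and 8.73 in the pair labelled Ovol1 KO, against 6.34 and 6.78 in Ovol1/2 DKO, so that the 2 control arrays differed by more than the Ovol1/2 DKO arrays did. Without control replicate 1, control replicate 2, Ovol1/2 DKO replicate 1 and Ovol1/2 DKO replicate 2, 13, 5, 3 and 4 genes of the list fell. When both arrays without Xist signal were left out, 26 of the 33 fell. Barrier lipid genes had a list mean of 8.42 and 9.08 in control and 7.13 and 7.27 in Ovol1/2 DKO. Of 30 measured 3 fell (10%, against 1.40% of all genes). They were Abca12, the lamellar granule lipid transporter (11.36 and 11.61 against 6.98 and 6.93), the epoxide hydrolase Ephx3 (-4.27, SE 0.56) and the elongase Elovl7 (-1.63, SE 0.27). Of these 3 only Abca12 passed under every setting tried. The lipoxygenase Alox12b was 17-fold lower by the means and did not pass (limma adjusted p = 0.139). It read 8.50 and 9.81 in control, 10.82 and 7.48 in the pair labelled Ovol1 KO, against 4.83 and 5.31 in Ovol1/2 DKO. The lipid count was 4, 1, 1 and 2 without the same arrays in that order, and it was 7 with only the 4 arrays compared. Leaving out both arrays without Xist signal gave 17 lower and 1 higher.

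Inflammatory products of keratinocytes fell in part. Of 12 interleukin 1 family genes 3 fell and 9 did not pass (25% lower, against 1.40% of all genes). The epidermal cytokine Il1f6, also called Il36a, read 9.98 and 11.43 in control, 11.42 and 10.88 in the pair labelled Ovol1 KO, against 4.90 and 5.33 in Ovol1/2 DKO, where it was near background (log2 difference -5.59, SE 0.48, limma adjusted p = 0.00652). Il1f9, also called Il36g, read 10.18 and 11.98 against 6.10 and 7.27, and Il1a, an alarm cytokine stored in keratinocytes, 12.44 and 12.87 against 10.58 and 9.11. Il1b was near background in all 4 arrays, between 5.25 and 5.78. The receptor antagonist Il1rn was 3.01 lower (SE 0.66) and did not pass (limma adjusted p = 0.0955). Of the 3 calls only that of Il1f6 held under every setting tried, and the list count was 3, 1, 2 and 1 without control replicate 1, control replicate 2, Ovol1/2 DKO replicate 1 and Ovol1/2 DKO replicate 2. It was 6 with both arrays that lack Xist signal left out.

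Of 20 antimicrobial peptide and S100 genes 2 fell (10%, against 1.40% of all genes). S100a14, a calcium-binding protein of epithelia, read 11.18 and 11.71 in control and 7.83 and 7.85 in Ovol1/2 DKO (log2 difference -3.61, SE 0.24, limma adjusted p = 0.00343). The defensin Defb14 read 8.05 and 10.24 against 4.59 and 4.97. S100a8, an alarm protein, read 6.96 and 10.58 in control and 6.41 and 5.71 in Ovol1/2 DKO and did not pass, with control arrays 3.62 apart. Of 25 chemokine and inflammation genes 3 fell (12%, against 1.40% of all genes). They were Cxcl2, a neutrophil chemokine (11.97 and 12.02 against 8.81 and 8.34), Cxcl16 (12.07 and 11.87 against 10.27 and 9.99) and the prostaglandin synthase Ptgs2 (13.01 and 13.02 against 11.23 and 11.02). The control arrays agreed within 0.20 for these 3. Without control replicate 1, control replicate 2, Ovol1/2 DKO replicate 1 and Ovol1/2 DKO replicate 2, the antimicrobial and S100 count was 8, 2, 1 and 1 and the chemokine and inflammation count 1, 3, 1 and 0. Without both arrays that lack Xist signal, 11 genes of each of these lists fell and 1 of the chemokine and inflammation list rose.

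Contractile, matrix and mesenchymal genes rose in a minority of each list, and none of these 3 lists held a gene that fell in the fit of all 6 arrays. Of 32 contractile and actin-binding genes 4 rose, none fell and 28 did not pass, with a median of 0.41. The share that rose was 12.5%, against 0.622% of all genes. Tns1, which ties integrins to actin, read 7.63 and 8.22 in control and 11.74 and 12.94 in Ovol1/2 DKO (log2 difference 4.41, SE 0.43, limma adjusted p = 0.00840). Acta2, smooth muscle actin, read 9.92 and 9.89 against 12.56 and 13.41. Tagln, a smooth muscle actin-binding protein, read 7.23 and 7.35 against 10.11 and 11.18, and Actg2, another smooth muscle actin, 7.16 and 7.45 against 10.11 and 10.66. In all 4 the lower Ovol1/2 DKO array stood 2.64 or more above the higher control array. Dimmer probe sets of Tns1 gave differences from 0.26 to 3.40. Actc1, the cardiac actin, differed by 0.03 (SE 0.37), and Cnn1, a smooth muscle calponin, was 2.27 higher (SE 0.51) without passing (limma adjusted p = 0.104). Both arrays of Ovol1/2 DKO lay above both control arrays in 23 of the 32 genes (21.1% of all genes). The count was 4, 3, 4 and 2 without control replicate 1, control replicate 2, Ovol1/2 DKO replicate 1 and Ovol1/2 DKO replicate 2.

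Of 17 mesenchymal surface and filament markers 3 rose and 14 did not pass (17.6% higher, against 0.622% of all genes). Vim, the mesenchymal intermediate filament, read 11.13 and 9.92 in control, 8.39 and 9.82 in the pair labelled Ovol1 KO, against 13.20 and 13.24 in Ovol1/2 DKO. The groups did not overlap, and the difference of 2.70 (SE 0.54) did not pass (limma adjusted p = 0.0730). Dab2, an endocytic adaptor, rose from 6.16 and 6.14 to 8.99 and 9.84, the glycoprotein Thy1 from 7.99 and 7.97 to 9.62 and 9.68, and the lipid receptor S1pr3 from 9.32 and 9.56 to 11.07 and 11.33. A dimmer probe set of Dab2 gave -0.17. Axl, a receptor kinase, read 12.50 and 12.49 against 12.53 and 12.52, and Cd44, a hyaluronan receptor, 12.75 and 12.77 against 12.27 and 12.34. Neither passed. The marker count was 4, 2, 1 and 1 without control replicate 1, control replicate 2, Ovol1/2 DKO replicate 1 and Ovol1/2 DKO replicate 2. Thy1 is also on the fibroblast list, whose other 11 members did not pass, with Dcn at 7.25 and 8.40 in control and 7.35 and 8.30 in Ovol1/2 DKO.

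Genes for the folding and cross-linking of collagen rose in part, with Lox first among them. The list of 22 genes is called enzymes here, though it also holds the chaperone Serpinh1. Of these 4 rose and 18 did not pass, with a median of 0.73 (18.2% higher, against 0.622% of all genes). Of 28 collagens 1 rose and 27 did not pass, with a median of 0.23 (3.57% higher). Lox, the lysyl oxidase, read 6.96 and 7.58 in control and 11.28 and 11.76 in Ovol1/2 DKO, a 19-fold increase (log2 difference 4.25, SE 0.38, limma adjusted p = 0.00755). The hydroxylases P4ha1, Plod1 and P3h3 rose by 1.29 (SE 0.19), 1.52 (SE 0.20) and 1.67 (SE 0.30). Col5a2 rose from 6.34 and 6.31 to 8.24 and 9.0, while Col1a1 read 7.48 and 8.25 against 8.07 and 8.50, with overlapping groups. The enzyme count was 3, 1, 1 and 1 and the collagen count 1, 0, 1 and 0 without control replicate 1, control replicate 2, Ovol1/2 DKO replicate 1 and Ovol1/2 DKO replicate 2. They were 8 and 1 without both arrays that lack Xist signal.

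Of 30 matricellular and matrix glycoprotein genes 4 rose and none fell (13.3% higher, against 0.622% of all genes). Ccn4, a secreted Wnt-induced signalling protein, read 7.08 and 7.26 in control and 11.12 and 11.59 in Ovol1/2 DKO (log2 difference 4.18, SE 0.24, limma adjusted p = 0.00263). Its relatives Ccn1 (-0.74, SE 0.48) and Ccn2 (-0.06, SE 0.60) did not pass. Fstl1 rose from 9.46 and 9.19 to 12.25 and 12.91, Tgfbi from 7.84 and 8.05 to 10.59 and 11.64 and Sparc, a collagen-binding protein, from 11.65 and 11.25 to 13.06 and 13.15. Fn1, the fibronectin, read 10.69 and 11.35 against 12.04 and 12.37 and did not pass (1.19, SE 0.62). Postn, the periostin, read 5.18 and 5.65 against 6.62 and 8.65 and did not pass, with Ovol1/2 DKO arrays 2.03 apart. The count was 3, 1, 2 and 1 without control replicate 1, control replicate 2, Ovol1/2 DKO replicate 1 and Ovol1/2 DKO replicate 2. It was 9 with both arrays that lack Xist signal left out.

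**Figure D4:**
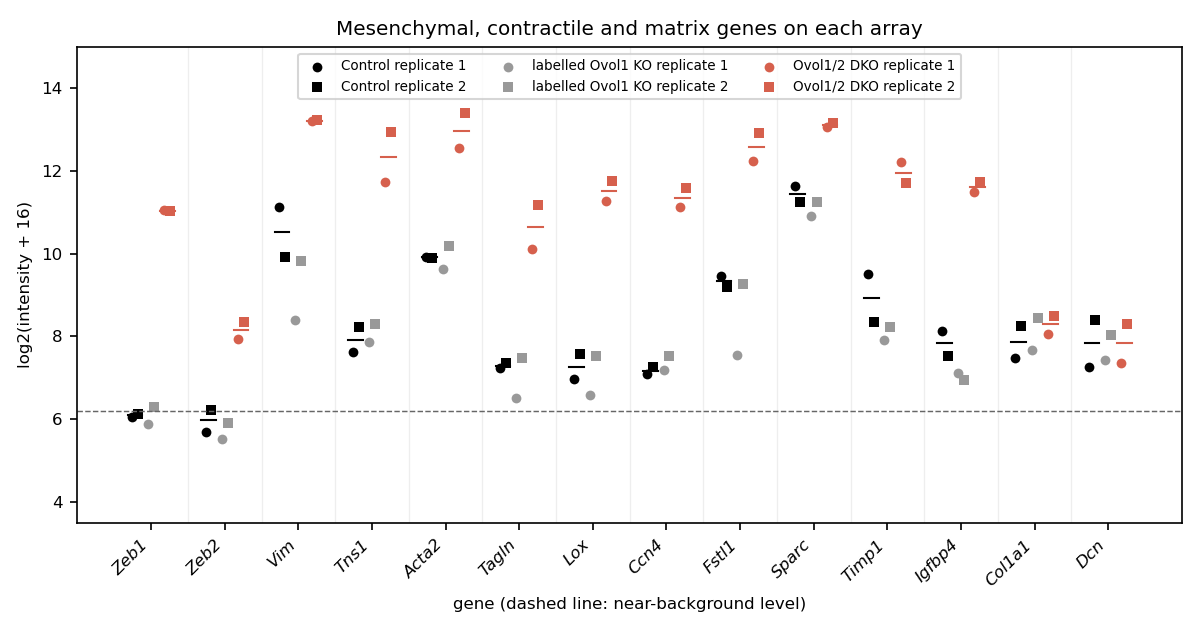
Levels of 14 EMT, contractile and matrix genes on each array as log2(intensity + 16), with the colours and symbols black for control, grey for the arrays labelled Ovol1 KO and orange for Ovol1/2 DKO, circles for replicate 1 and squares for replicate 2; short bars are means of 2 arrays and the dashed line is the near-background level of 6.20. In 12 genes both Ovol1/2 DKO arrays lie above both control arrays, and in Col1a1 and Dcn the groups overlap.

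Among genes of attachment to the basement membrane, 1 integrin rose and 1 fell. Each is 5.88% of the 17 integrins, against 0.622% of all genes higher and 1.40% lower. None of 15 hemidesmosome and laminin genes passed by limma (3 were higher at an unadjusted p under 0.05), among them Itgb4 (0.20, SE 0.30), Col17a1 (0.51, SE 0.24) and Lama3 (-0.07, SE 0.21). Of 17 integrins, Itgb6, the epithelial subunit that activates latent TGF-beta, fell from 11.50 and 11.14 to 9.64 and 9.58, and Itga7, a laminin receptor subunit of muscle, rose from 7.15 and 7.04 to 8.45 and 9.16. Itga6, the partner of Itgb4, was 0.29 higher (SE 0.20) and did not pass. The call of Itga7 was lost without any 1 of the 4 arrays, and that of Itgb6 without Ovol1/2 DKO replicate 1 or replicate 2.

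Of 32 matrix proteases and inhibitors 1 rose and 1 fell. Each is 3.12% of the list, against 0.622% of all genes higher and 1.40% lower. Timp1, an inhibitor of metalloproteinases, read 9.52 and 8.36 in control and 12.22 and 11.70 in Ovol1/2 DKO (log2 difference 3.02, SE 0.40, limma adjusted p = 0.0197). Adam8 read 12.17 and 12.27 against 10.77 and 10.76. The gelatinases Mmp2 (2.32, SE 0.52) and Mmp9 (0.39, SE 1.25) did not pass. Outside these lists, Tll1, a procollagen-processing protease, rose from 8.29 and 7.68 to 10.91 and 11.29 and Tgm2, the tissue transglutaminase, from 6.21 and 6.42 to 8.50 and 10.02. The call of Timp1 was lost without either Ovol1/2 DKO array, and those of Adam8 and Tll1 without control replicate 2 or either Ovol1/2 DKO array. Tgm2 lost it without control replicate 1, control replicate 2 or Ovol1/2 DKO replicate 2.

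In the insulin-like growth factor axis 3 of 13 genes rose. Igfbp4, a binding protein that holds the ligands, read 8.13 and 7.53 in control, 7.11 and 6.95 in the pair labelled Ovol1 KO, against 11.50 and 11.73 in Ovol1/2 DKO (log2 difference 3.78, SE 0.26, limma adjusted p = 0.00343). The ligand Igf2 read 9.91 and 9.21 against 12.10 and 11.78, and the binding protein Igfbp6 7.54 and 7.01 against 9.29 and 9.72. The receptor Igf1r was 0.47 lower (SE 0.22) and did not pass. The median of the axis was -0.09, of the other sign from the 3 that rose. The 3 that rose are 23.1% of the axis, against 0.622% of all genes, and their count was 3, 1, 1 and 1 without control replicate 1, control replicate 2, Ovol1/2 DKO replicate 1 and Ovol1/2 DKO replicate 2.

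Of 14 EGF family ligands and receptors 2 fell (14.3%, against 1.40% of all genes). The receptor Erbb3 read 10.43 and 10.95 in control and 7.69 and 7.97 in Ovol1/2 DKO (log2 difference -2.86, SE 0.26, limma adjusted p = 0.00755), and the ligand Ereg 9.11 and 9.34 against 7.99 and 7.31. Egfr, the main receptor of the family, read 10.86 and 10.80 against 10.81 and 10.97, with overlapping groups. Erbb3 kept its call under every setting tried, while Ereg lost it without any 1 of the 4 arrays. None of 17 FGF ligands and receptors passed by limma, with 3 higher and 2 lower at an unadjusted p under 0.05. Fgfr1 was 1.32 higher (SE 0.40), Fgfr2 0.46 higher (SE 0.34) and Fgf7 1.38 lower (SE 0.29).

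Of 23 TGF-beta and activin genes, the ligand Tgfb3 rose from 7.53 and 7.09 to 9.29 and 9.49, and Inhba, the activin subunit, fell from 12.30 and 12.22 to 9.50 and 10.06. Each is 4.35% of the list, against 0.622% of all genes higher and 1.40% lower. The call of Tgfb3 was lost without control replicate 2, Ovol1/2 DKO replicate 1 or Ovol1/2 DKO replicate 2, and that of Inhba without control replicate 2 or Ovol1/2 DKO replicate 1. The receptors Tgfbr1 (-0.09, SE 0.24) and Tgfbr2 (0.33, SE 0.21) did not pass. None of 19 BMP and Id genes passed by limma (4 higher and 1 lower at an unadjusted p under 0.05), with Id1 closest at 1.59 (SE 0.29, limma adjusted p = 0.0541). Of 17 Notch genes the ligand Jag2 rose from 9.88 and 9.37 to 10.96 and 10.90, and of 35 Wnt genes the receptor Fzd2 rose from 8.88 and 8.19 to 9.94 and 10.20. They are 5.88% of the Notch list and 2.86% of the Wnt list, against 0.622% of all genes. Both lost the call without control replicate 2, Ovol1/2 DKO replicate 1 or Ovol1/2 DKO replicate 2. With control replicate 1 left out, 3 Notch genes rose, and with both arrays that lack Xist signal left out, 3 Notch genes rose, 8 Wnt genes rose and 2 Wnt genes fell. Of 43 guidance genes the netrin receptor Unc5b rose by 2.03 (SE 0.29) and Sema3c, a secreted semaphorin, fell by 1.39 (SE 0.24), so that 2.33% of the list passed in each direction (0.622% of all genes higher, 1.40% lower). Sema3c lost the call without any 1 of the 4 arrays, and Unc5b without any of them but control replicate 1, while 3 guidance genes rose and 6 fell without both arrays that lack Xist signal.

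The amino acid and glutamate transporters held the 2 largest decreases of all genes named. Slc6a14, an importer of neutral and basic amino acids, read 11.28 and 12.03 in control, 11.08 and 11.56 in the pair labelled Ovol1 KO, against 4.34 and 5.78 in Ovol1/2 DKO (log2 difference -6.59, SE 0.50, limma adjusted p = 0.00476). Slc1a1, a glutamate importer, read 11.53 and 11.40 against 4.97 and 5.93. Slc7a8, an exchanger of neutral amino acids, rose from 6.25 and 6.54 to 8.94 and 9.84. These were 3 of 21 genes of the list, all 3 passed under every setting tried, and the median of the list was 0.24. Of the list 4.76% rose and 9.52% fell, against 0.622% and 1.40% of all genes. The cystine exchanger Slc7a11 was 0.91 higher (SE 0.32) and did not pass. The chloride transporter Slc26a9 fell from 10.31 and 10.59 to 4.93 and 5.20, and Slc15a1, a peptide importer, from 8.64 and 10.58 to 4.63 and 5.07. Slc15a1 lost the call when either Ovol1/2 DKO array was left out.

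Another 4 genes had some of the largest differences. Bcl2l15, a relative of apoptosis regulators, read 10.68 and 10.87 in control and 5.40 and 5.93 in Ovol1/2 DKO (log2 difference -5.11, SE 0.26, limma adjusted p = 0.00263). Aldh1a3, an enzyme of retinoic acid synthesis, read 9.85 and 11.91 against 5.23 and 6.90 and lost the call without control replicate 2 or either Ovol1/2 DKO array. The imprinted gene Mest rose from 9.47 and 9.25 to 12.04 and 12.86 and passed under every setting tried. Prl2a1, of the prolactin family, read 9.13 and 11.68 against 5.15 and 4.41 and lost the call when either Ovol1/2 DKO array was left out.

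Proliferation genes did not pass in either direction. None of 32 cell cycle and DNA replication genes passed by limma, and 0 had an unadjusted p under 0.05. Both Ovol1/2 DKO arrays lay above both control arrays in 2 of them (21.1% of all genes). Mki67, a proliferation marker, read 10.42 and 9.83 in control and 10.67 and 10.06 in Ovol1/2 DKO. The list mean was 10.81 and 9.94 in control and 10.97 and 10.37 in Ovol1/2 DKO, so that replicate 1 was the higher array in each group. The median of the list was 0.32, and 0.76, -0.13, -0.01 and 0.65 without control replicate 1, control replicate 2, Ovol1/2 DKO replicate 1 and Ovol1/2 DKO replicate 2. Myc was 0.05 lower (SE 0.38), and none of 11 Myc and cyclin-dependent kinase inhibitor genes passed by limma or at an unadjusted p under 0.05. Of 20 interferon-stimulated genes Rsad2, an antiviral enzyme, fell from 7.26 and 8.14 to 5.55 and 5.39, a call lost without control replicate 2 or either Ovol1/2 DKO array. Rsad2 is 5% of the interferon-stimulated list, against 1.40% of all genes lower. None of 34 Hox genes passed by limma, with 8 higher at an unadjusted p under 0.05 and Hoxc5 closest at 1.36 (SE 0.30, limma adjusted p = 0.101). With control replicate 1 left out, 2 Hox genes rose, and 5 did without both arrays that lack Xist signal.

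**Figure D5:**
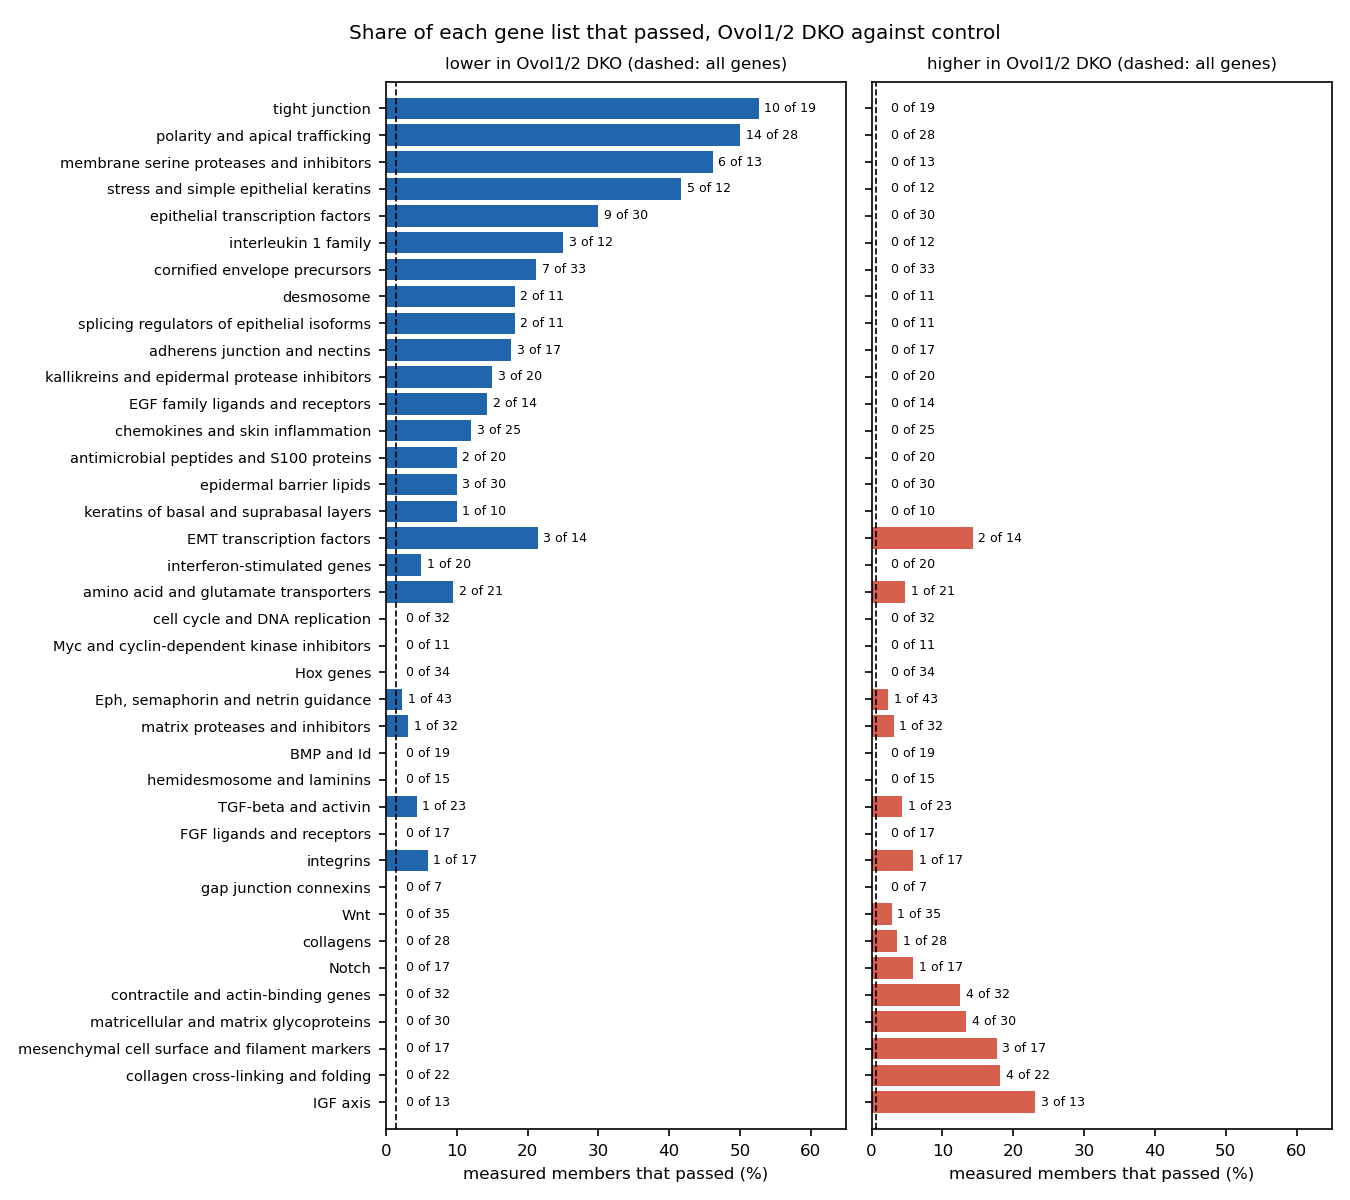
Share of measured members (percent) of 38 gene lists that passed, lower in Ovol1/2 DKO on the left and higher on the right; counts stand beside the bars and dashed lines mark the share of all genes (1.40% lower, 0.622% higher). The tight junction list (10 of 19) and the polarity and trafficking list (14 of 28) have the longest bars on the left, and the IGF axis (3 of 13) the longest on the right.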

How the data were processed

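The arrays were one-colour Affymetrix arrays. The authors deposited a linear intensity for each probe set, and Affymetrix Expression Console 1.1.1 and PLIER 2.0 are listed in the submitters' processing notes. How background and scaling were treated is not given in the sources used here. Of 35556 probe sets, 21789 had 1 gene symbol, 1621 had several and were left out, and 12146 were unnamed here. Where a gene had more than 1 probe set (999 genes), the brightest on average over the 6 arrays stood for it, giving 19938 genes. One model of 3 group means over all 6 arrays was fitted to log2(intensity + 16) with limma 3.58.1 in R 4.3.3 (lmFit, eBayes), with Benjamini-Hochberg adjustment over all genes. It had 3 residual and 3.68 prior degrees of freedom. Array median intensity ran from 103.3 to 109.8, and the number of arrays limits the precision (median SE 0.245). The fit was also run on simulated data with independent noise, which gives no error rate for these arrays.

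The comparison, its members and the 38 gene lists and 9 marker lists (851 of 897 symbols measured) were chosen with earlier results of these data known. Named were Ovol1, Ovol2, Xist and Y-linked genes as a check of labels, in each direction the 20 passing genes of largest difference whose arrays did not overlap and whose higher group mean reached 7.56, and from each list its first 3 symbols plus up to 6 passing genes a direction (if there were none, the 2 lowest p-values). Not all of these are described. Chosen after their values were seen were Ccn1, Ccn2, Cgn, Ctnna1, Ctnnb1, Hopx, Ildr1, Jup, Llgl2, Lum, Mxd1, Pard6b, Patj, Prdm1, Rab11fip1, Snai2, Tjp3, Twist1, and the genes of the closing section. The labels do not say that a replicate number marks a shared litter or day, so no block was used. Alternatives were other samples, normalizations, offsets, filters and variance models.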

Additional observations from a re-analysis of the deposited data

Results flagged for a closer look

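Among 12146 probe sets that carry no gene name here and entered no comparison above, 2 passed limma at an adjusted p under 0.05 in a fit of 33935 probe sets, and both were higher in Ovol1/2 DKO than in control. They are 0.0165% of the unnamed probe sets, and what they measure is not known here. The share of 2.02% among named genes came from a separate fit with the brightest probe set of each gene. Unnamed probe sets had array medians of 6.20 or less, and of 5129 named genes near background in both groups 1 passed.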

How the results depend on the processing

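With 2 arrays a group, single arrays decided much of what passed. Against 403 genes (124 higher, 279 lower), leaving out 1 of the 6 arrays gave 99 to 455 genes, 16 to 116 higher and 69 to 340 lower, and where a group kept 1 array, that array was assumed to vary like the other groups. Leaving out control replicate 1 and replicate 1 labelled Ovol1 KO together gave 1395 (572 higher, 823 lower), an offset of 64 gave 155 (55 and 100), and array weights gave 608 (201 and 407). The 4 arrays alone gave 410, of which 315 were among the 403. In that fit no gene of the splicing or Notch list passed and no integrin rose. Quantile normalization gave 307 (291 among the 403), median centring 454 (402) and an offset of 1 gave 409 (369). Leaving out dim genes gave 445 (394), an intensity trend 496 (382) and robust variance 398 (398). All probe sets gave 402. The replicate number as a block gave 597 genes (217 higher, 380 lower), of which 396 were among the 403; deviations of replicate 1 from its group mean correlated at 0.49 between control and Ovol1/2 DKO, but no label says that the numbers pair the arrays. The cause of these shifts was not tested.

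Of 129 passing genes named in the text, none changed direction under the 17 settings run per gene and 40 passed in all of them. Those left without control replicate 1 numbered 107, without control replicate 2 they numbered 65, without Ovol1/2 DKO replicate 1 they numbered 53, and without Ovol1/2 DKO replicate 2 they numbered 54. Among genes named in the text that did not pass, 18 passed in some setting, Vim in 8 of them, and among all 118 that the rule named and that did not pass, printed or not, 37 did. In the text 18 genes had differences near 0 that changed sign, none of them called. Over single arrays left out, Actc1 ran from -0.24 to 0.31, Ccn2 from -0.17 to 0.05, Ctnnb1 from -0.02 to 0.13, Dcn from -0.58 to 0.57, Eif2s3y from -0.07 to 0.05 (0.03 with quantile normalization), Egfr from -0.02 to 0.14, Gja1 from -0.06 to 0.42, Kdm5d from -0.31 to 0.55, Klf5 from -0.41 to 0.19 and Krt5 from 0.00 to 0.13. Lum ran from -0.16 to 0.30, Mki67 from -0.07 to 0.54, Mmp9 from -0.47 to 1.25, Myc from -0.58 to 0.48, Ovol2 from -0.80 to 0.60, Snai1 from -0.10 to 0.39, Tgfbr1 from -0.23 to 0.06 and Uty from -0.49 to 0.01. With both arrays without Xist signal left out, Actc1 was at -0.15, Ccn2 at 0.05, Kdm5d at -0.12, Klf5 at 0.19, Lum at -0.06, Mmp9 at -0.47, Myc at 0.48, Ovol2 at 0.60 and Snai1 at -0.10. Signal near background limits the size of 98 of the 279 decreases.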

Other observations

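Gene families outside the lists were read by symbol after the values were seen. Of 7 measured genes of the interferon-inducible p200 family, which sense DNA, 4 fell and none rose (57.1% lower, against 1.40% of all genes). Ifi202b read 11.54 and 11.06 in control, 10.26 and 11.14 in the pair labelled Ovol1 KO, against 7.16 and 7.85 in Ovol1/2 DKO (log2 difference -3.80, SE 0.38, limma adjusted p = 0.00875). Ifi205 read 8.41 and 8.97 in control and 5.42 and 5.52 in Ovol1/2 DKO, and Ifi209 read 8.70 and 9.30 against 6.10 and 5.58. Ifi207 fell by 1.84 (SE 0.30). These genes are near copies of one another, so their probes may read more than 1 of them. The groups did not overlap in any of the 4, while among 20 other interferon-stimulated genes only Rsad2 passed.

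Of 364 measured solute carriers 14 fell (3.85%, against 1.40% of all genes) and 2 rose (0.549%, below the 0.622% of all genes), with a median of 0.03. Those that fell spanned amino acids, peptides, glucose, riboflavin and nucleosides, and included Slc5a1, a sodium-coupled glucose importer, Slc52a3, a riboflavin importer, and Slc28a3, a nucleoside importer. Besides Slc7a8 the urea channel Slc14a1 rose, from 6.89 and 6.30 to 8.79 and 8.74. A list of imprinted genes was written after the values were seen, and its members Igf2 and Mest were already named above. Of its 21 measured genes 3 rose: Igf2, Mest and Peg10, which read 8.07 and 6.73 in control and 10.56 and 9.65 in Ovol1/2 DKO. The share of 14.3%, against 0.622% of all genes, only describes a list drawn from these same data. The imprinted genes Peg3 and Igf2r were 0.57 and 0.50 lower and did not pass, and the median of the list was 0.11.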
